A study of Homo sapiens with 6 samples.

Results

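SPI1, which encodes the transcription factor PU.1, and 6 of its relatives in the ETS family (ETS1, ETS2, FLI1, ETV6, ELF1 and GABPA) were examined for peaks of the chromatin protein DEK. The 7 genes were taken by name from 20163 protein-coding genes, and the peaks at them were all DEK peaks that touched a gene body extended by 20 kb on each side, so that the region upstream of SPI1 was included. Of the 15017 peaks of DEK replicate 1, 18 lay in these windows, and of the 152779 peaks of DEK replicate 2, 79 did. The windows covered 992 kb in all. Peaks were counted with no threshold on their strength; the rule used no measured value, although the genes were picked with earlier results of these data known.

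The cells were U937, a human monocytic line established from a histiocytic lymphoma, with no treatment or genetic change named in the labels. Chromatin was crosslinked with formaldehyde, sonicated and precipitated, and 6 libraries were sequenced in all. 2 came from an antibody to DEK (Abcam ab-74975), 2 from an antibody to histone H3 trimethylated at lysine 4 (H3K4me3, Abcam ab-8580), and 2 were input chromatin, whose reads were not analysed here. A single line of 1 cell type was used, so that no condition was compared, and the replicates were precipitations that the labels do not tie to separate cultures.

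ETS factors share a DNA-binding domain that reads a core of GGAA, and they differ in the bases they prefer around it. PU.1 is required for the development of macrophages, granulocytes and B cells, and its gene is known to be driven in myeloid cells by its promoter together with a distal enhancer upstream of it. DEK is an abundant nuclear protein that binds chromatin and histones and was first found as the partner in a leukemic fusion gene. H3K4me3 marks the nucleosomes at start sites of transcription that are in use.

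The DNA of 5 places on which the results below turn is given here, read 5′ to 3′ on the strand of the gene named from the GRCh37 (hg19) assembly, 251 bases each and without annotated exons. The capitals mark each GGAA core or its reverse complement TTCC. The first is centred on the summit of the strongest DEK peak near SPI1, which was found in replicate 2. It lies at chr11:47416261-47416511 on the minus strand and holds 4 cores.
SPI1 upstream region: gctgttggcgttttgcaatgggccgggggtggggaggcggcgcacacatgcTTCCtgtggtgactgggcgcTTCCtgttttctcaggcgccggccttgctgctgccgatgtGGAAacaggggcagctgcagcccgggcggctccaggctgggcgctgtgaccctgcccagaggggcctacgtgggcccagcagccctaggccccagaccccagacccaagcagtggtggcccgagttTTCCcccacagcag
The second is centred on the summit of the strongest replicate 2 peak at an internal start site of ETS1, at chr11:128392506-128392756 on the minus strand, and holds 2 cores.
ETS1 internal start region: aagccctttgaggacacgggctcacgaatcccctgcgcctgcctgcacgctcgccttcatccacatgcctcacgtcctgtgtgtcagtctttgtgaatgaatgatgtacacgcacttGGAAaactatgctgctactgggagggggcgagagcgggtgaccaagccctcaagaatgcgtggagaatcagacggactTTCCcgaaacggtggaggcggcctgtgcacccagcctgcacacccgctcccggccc
The other 3 lie inside intervals that both DEK lists held. They are at chr11:128564934-128565184 and chr11:128597750-128598000 on the plus strand in FLI1, with 2 and 5 cores, and at chr13:41634543-41634793 on the minus strand in ELF1, with 3 cores.
FLI1 first intron, near the start site: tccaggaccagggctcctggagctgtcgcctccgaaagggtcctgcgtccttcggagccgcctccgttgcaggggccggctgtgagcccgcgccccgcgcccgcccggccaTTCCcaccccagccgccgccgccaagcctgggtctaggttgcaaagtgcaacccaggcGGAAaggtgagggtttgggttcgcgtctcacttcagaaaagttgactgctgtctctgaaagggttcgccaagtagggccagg
FLI1 first intron, distal: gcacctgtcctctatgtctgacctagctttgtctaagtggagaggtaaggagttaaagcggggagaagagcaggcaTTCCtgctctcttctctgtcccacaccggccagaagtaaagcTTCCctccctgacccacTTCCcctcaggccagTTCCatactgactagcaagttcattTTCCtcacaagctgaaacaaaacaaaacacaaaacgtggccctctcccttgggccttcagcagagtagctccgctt
ELF1 distal start region: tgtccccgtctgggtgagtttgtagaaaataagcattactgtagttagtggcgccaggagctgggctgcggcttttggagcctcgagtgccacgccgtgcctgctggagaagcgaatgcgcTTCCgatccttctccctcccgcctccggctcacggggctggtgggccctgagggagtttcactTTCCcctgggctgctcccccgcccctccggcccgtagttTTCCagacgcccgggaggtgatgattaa
The cores of the distal FLI1 place and of the ELF1 place were all written as TTCC on the strand of the gene. None of the 5 held the 8-base sequences GAGGAAGT or CCGGAAGT. The corresponding interval at GABPA was covered by exons of GABPA and of its neighbour ATP5PF in all but 11 bases, so that no sequence of it is shown. The remaining intervals held by both lists are not shown either. Their 251 bases without annotated exons held 0 cores at FLI1 (chr11:128593927-128594177), 2 at ETV6 and 1 in the second interval of ELF1.

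The lists differed in length and in what they give. Replicate 2 held 10.2 times as many peaks as replicate 1, and at the 7 genes 4.39 times as many. Each DEK peak carries its tags (the sequence reads inside it), a fold enrichment over background and a score, which is minus 10 times the log10 of the p-value of the peak caller. The estimated false discovery rate was 100% for each replicate 1 peak and 0.74 to 16.67% in replicate 2. The replicate 1 peaks held 988363 tags and the replicate 2 peaks 4172422. The methods of the study give a minimum of reads per sample but not the total of each library, so that tags were compared only within a list. The percentile is the percentage of that list's peaks with a lower value, with tied peaks placed at the middle of their tie. A list says nothing of signal outside its peaks. With 1 list per precipitation and no group to compare, no test was possible, and the values below are descriptions; the intervals given for shares are 95% Wilson intervals that cover counting error only.

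At the 7 genes, the replicate 1 peaks held between 27 and 319 tags, with a median of 90.5, against a median of 47 over the whole list. The replicate 2 peaks held between 12 and 108 tags, with a median of 26, against 20 over the list. In tags, 15 of the 18 replicate 1 peaks and 54 of the 79 replicate 2 peaks lay above the median of their list. They were also broad, with a median width of 1530.5 bp against 1016 bp in replicate 1 and of 832 bp against 697 bp in replicate 2. Their scores were nearer to those of the whole lists, with a median of 76.6 against 68.8 in replicate 1 and of 79.2 against 78.3 in replicate 2. Fold enrichment was slightly under the list medians, with 5.28 against 5.57 in replicate 1 and 4.33 against 4.58 in replicate 2.

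Both DEK lists held a peak at 6 of the 7 genes, SPI1 being the exception with peaks in replicate 2 alone. Over all protein-coding genes, such a window held a peak of replicate 1 for 38.8% and of replicate 2 for 93.8%. An overlap of the lists by at least 1 bp, called a shared interval, was found at 4 of the 7 genes, against 19.1% of all protein-coding genes. FLI1 had 3 shared intervals, ELF1 2, ETV6 1 and GABPA 1, whereas SPI1, ETS1 and ETS2 had none. Counted as peaks, 6 of the 18 replicate 1 peaks were shared (33.3%, interval 16.3 to 56.3%), and the whole list gave 27.4%. Of the 79 replicate 2 peaks, 7 were shared (8.86%, interval 4.36 to 17.2%), and the whole list gave 2.90%. The replicate 1 share was close to its background, and the interval for replicate 2 lay above its own. That interval counts each peak as separate, although 3 of the 7 shared peaks were at FLI1. The 2 at ELF1 met the same replicate 1 peak. It is therefore not a test. Long windows hold more peaks: among genes with windows within 10% of the length of that of SPI1, 66.6% had no replicate 1 peak, while for the window of ETV6 this was 33.9%. Genes with windows of like length to those of the 7 had a shared interval in 15.9% (for ETS2) to 30.6% (for ETV6), with 28.5% for FLI1, 29.0% for ELF1 and 19.1% for GABPA.

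**Figure D1:**
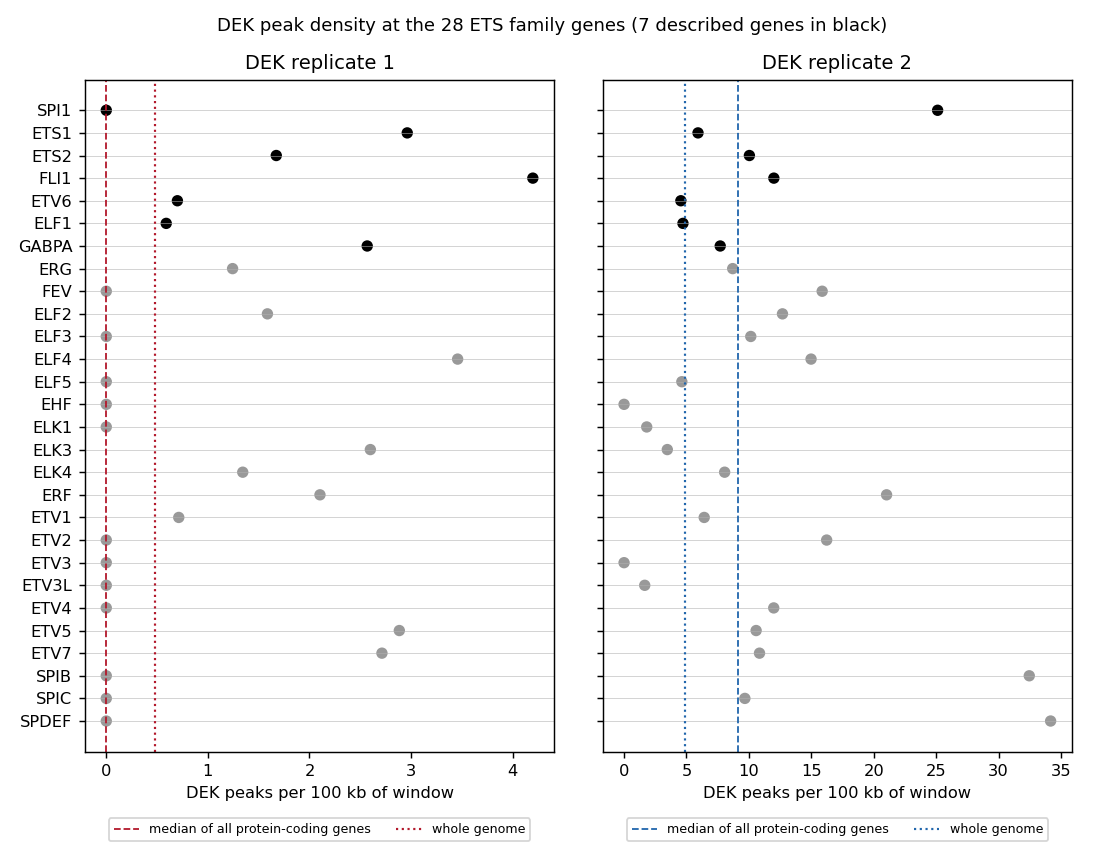
DEK peaks per 100 kb of window (gene body with 20 kb on each side) at the 28 ETS family genes in DEK replicate 1 (left) and replicate 2 (right); black points are the 7 genes described and grey points the other 21. The lines give the value of the whole genome and the median of all protein-coding genes; FLI1 is highest of all 28 in replicate 1 with 4.20, and SPI1 stands at 0 in replicate 1 and at 25.1 in replicate 2.

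Per length, FLI1 was the gene with the most replicate 1 peaks, with 4.20 per 100 kb (percentile 97.5 of protein-coding genes), followed by ETS1 with 2.96 (94.8), GABPA with 2.57 (93.5) and ETS2 with 1.67 (82.0). ETV6, with 0.70 per 100 kb (66.4), and ELF1, with 0.59 (64.9), were next to the genome value of 0.48, and SPI1 had none. In replicate 2 the order was another one. SPI1 led with 25.1 peaks per 100 kb (percentile 92.0), followed by FLI1 with 12 (61.9), ETS2 with 10.0 (54.3), GABPA with 7.70 (43.8) and ETS1 with 5.92 (34.5). ELF1 with 4.72 (28.3) and ETV6 with 4.55 (27.3) lay near the genome value of 4.92. Since each value rests on 1 list, it has no replicate error, and neighbours in these orders were not told apart by any test. Over the 7 windows together the density was 1.81 per 100 kb in replicate 1 and 7.96 in replicate 2. The median of the 7 genes was 1.67 in replicate 1 and 7.70 in replicate 2. The median of all protein-coding genes was 0 in replicate 1 and 9.11 in replicate 2. In replicate 2 the median and the joint density of the members lay below it, although SPI1, FLI1 and ETS2 each lay above it.

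SPI1 (ENSG00000066336, chr11:47376411-47400098, minus strand) had 0 replicate 1 peaks and 16 replicate 2 peaks with 494 tags in all. The nearest replicate 1 peak lay 108854 bp from the start site of the gene. Of the 16 replicate 2 peaks, 3 lay upstream, 5 in the gene body and 8 beyond its end, of which 7 were over the neighbouring gene MYBPC3, which encodes a cardiac sarcomere protein. The strongest stood upstream, at chr11:47414826-47417199, with its middle 15.9 kb from the start site. It held 105 tags (percentile 98.4 of its list), reached 5.87-fold enrichment with a score of 312.0 (98.6), and its sequence at the summit is given above. It lay within H3K4me3 peaks of both replicates and covered a start site of the long noncoding RNA SLC39A13-AS1. The other upstream peaks were weaker, with 26 tags 18.2 kb from the start site and 14 tags 5.6 kb from it. In the gene body the strongest was in intron 3 with 53 tags and a score of 125.5, on an H3K4me3 peak of replicate 1 alone, and the other 4 were in intron 2 with 15 to 36 tags. Beyond the end of the gene, the peaks with the highest scores were both over MYBPC3, with 43 tags and a score of 205.1, and with 40 tags and a score of 194.2.

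The start site of SPI1 itself carried H3K4me3 in both replicates and no DEK peak in either, the nearest being a replicate 2 peak 3427 bp away. In tags per kb of window, SPI1 had 7.76 in replicate 2, which is percentile 86.5 of protein-coding genes, and 0 in replicate 1, as did 61.2% of them. On the distance in log2 of tags per kb plus 1 over both DEK lists, the genes most like SPI1 were SAP30BP (7.76 tags per kb in replicate 2), TACR2 (7.75) and NKG7 (7.76), all with 0 in replicate 1. Since the 0 in replicate 1 is common, this likeness rests on the replicate 2 value, from 1 library. The closest relatives of PU.1 also lacked a replicate 1 peak. SPIB had 0 replicate 1 and 17 replicate 2 peaks, and SPIC had 0 and 5.

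**Figure D2:**
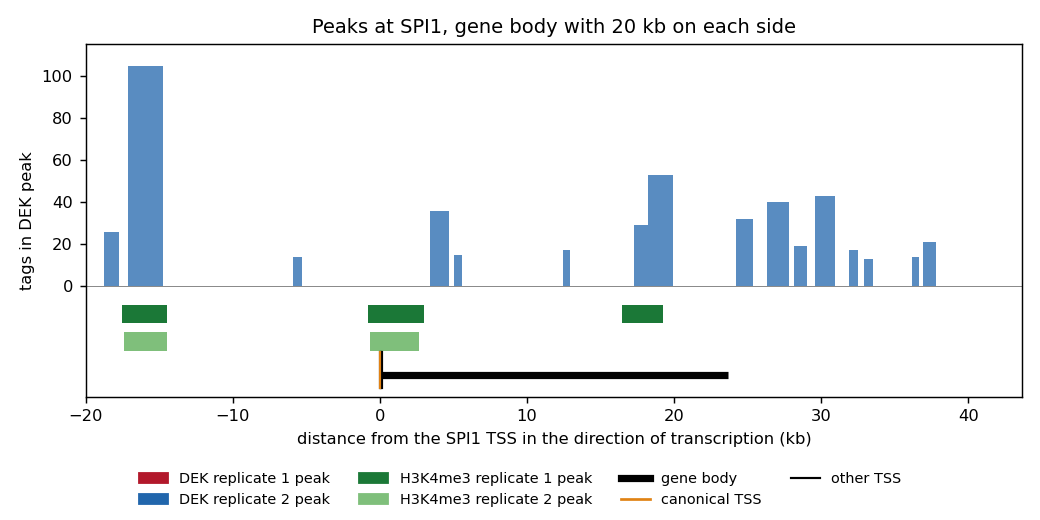
Peaks at SPI1 against the distance from its start site (TSS) in kb, positive in the direction of transcription; the height of a DEK bar is the tags in the peak and the bars under the axis are H3K4me3 peaks and the gene body. All DEK bars are from replicate 2, and the highest, with 105 tags, stands upstream of the gene over H3K4me3 peaks of both replicates, while the start site has H3K4me3 and no DEK peak.

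FLI1 (ENSG00000151702, chr11:128556430-128683162, plus strand), a factor of megakaryocytes and blood stem cells, had the most DEK peaks of the 7 genes in both lists, with 7 in replicate 1 (967 tags) and 20 in replicate 2 (795 tags). All but 1 of the replicate 1 peaks were in the first intron of the main transcript, and 6 overlapped H3K4me3 in both replicates. The strongest, at chr11:128585452-128589890, had 319 tags (percentile 99.2), a score of 257.7 (96.3) and a width of 4439 bp. It was not shared: replicate 2 had a peak on each side of it, at 409 bp with 23 tags and at 210 bp with 47 tags, and all of them overlapped H3K4me3 in both replicates.

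The strongest replicate 2 peak of FLI1 lay elsewhere, over the outermost of its start sites, with 108 tags (98.5) and a score of 440.7 (99.3), the highest score at any of the 7 genes. No H3K4me3 peak overlapped it, and it also covered a start site of the long noncoding RNA ENSG00000245008. The main start site of FLI1, that of the canonical transcript, lies downstream of it and was covered by a replicate 2 peak with 45 tags and by H3K4me3 in both replicates. That replicate 2 peak overlapped a replicate 1 peak with 125 tags, the middle of the shared 376 bp being 1072 bp from the nearest start site, within SENCR, an antisense noncoding RNA. The other shared intervals lay deeper in the first intron, with middles 30065 and 30126 bp from the nearest start site. One was 688 bp long, with 175 and 26 tags in the lists, and was the single shared interval without H3K4me3 in either replicate. The other was 1251 bp long, with 144 and 43 tags, and had H3K4me3 in both.

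ETS1 (ENSG00000134954, chr11:128328656-128457453, minus strand), a factor best known in lymphocytes and endothelium, had 5 replicate 1 peaks (27 to 133 tags) and 10 replicate 2 peaks (25 to 71 tags), and no pair of them overlapped. Peaks of the lists were interspersed along the gene. Gaps from a replicate 1 peak to the nearest replicate 2 peak were 1059, 1550, 2195, 2959 and 14733 bp. The 3 strongest replicate 1 peaks, with 92, 117 and 133 tags and scores of 129.7, 112.5 and 103.5, were in introns 1, 2 and 7 and overlapped H3K4me3 in both replicates. In replicate 2 the peak with the most tags was over an internal cluster of start sites, 65.3 kb into the gene, where 4 shorter transcripts begin. It had 71 tags (96.1), a score of 260.3 (97.7) and H3K4me3 in both replicates, and its sequence is given above. A replicate 2 peak with 38 tags and a score of 262.1 (97.8) stood 13.4 kb upstream of the gene, with no H3K4me3. ETS1 was the 1 gene whose main start site was not covered by H3K4me3, the nearest peaks being 4024 and 4052 bp away. DEK peaks flanked that start site without covering it, at 1065 bp in replicate 1 and at 1129 bp in replicate 2.

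ETS2 (ENSG00000157557, chr21:40177107-40196879, plus strand), a target and effector of Ras signalling in macrophages, had 1 replicate 1 peak and 6 replicate 2 peaks (13 to 37 tags). The replicate 1 peak was 26.4 kb from the start site and beyond the end of the gene, with 72 tags (71.3) and a score of 63.6 (41.3), on H3K4me3 of both replicates and within the noncoding RNA ENSG00000205622. The replicate 2 peaks grouped at the start: 1 with 37 tags covered the outermost start site, and peaks with 23 tags each stood 0.9 kb before and 1.4 kb after it, all on H3K4me3 of both replicates. The highest score of the 6, 131.2, was in exon 10, with no H3K4me3. The start of ETS2 lay in an H3K4me3 peak of 11.4 kb in replicate 1, the widest at any of the 7 genes.

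ETV6 (ENSG00000139083, chr12:11802608-12048311, plus strand), a repressor that is a frequent partner in leukemic fusions, had 2 replicate 1 peaks and 13 replicate 2 peaks (12 to 56 tags). Its shared interval, 557 bp in intron 4 and 205.3 kb from the start site, had 113 tags (87.7) in replicate 1 and 24 (63.2) in replicate 2, and H3K4me3 in both. The other replicate 1 peak had 44 tags, in intron 3, on H3K4me3 of replicate 1 alone. The replicate 2 peak with the most tags, 56, and a score of 152.4 was 11687 bp from the nearest replicate 1 peak and had no H3K4me3. The start site of ETV6 was covered by H3K4me3 in both replicates and had no DEK peak within 1 kb, the nearest being 1610 bp away in replicate 2.

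ELF1 (ENSG00000120690, chr13:41506060-41635576, minus strand), an activator in lymphoid and myeloid cells, had 1 replicate 1 peak, which both of its shared intervals fell in, and 8 replicate 2 peaks (12 to 44 tags). The replicate 1 peak had 120 tags (89.3) but a score of only 55.1 (20.3) and a fold of 3.16. It lay over the distal start site, which stands head to head with WBP4, and overlapped replicate 2 peaks with 44 and 17 tags; the summits of the first pair were 64 bp apart. The canonical start site of ELF1 carried H3K4me3 in both replicates and was 40872 bp from the nearest DEK peak in replicate 1 and 17817 bp in replicate 2. The highest score in replicate 2, 157.6 with 28 tags, was beyond the end of the gene.

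GABPA (ENSG00000154727, chr21:27106881-27144771, plus strand), the DNA-binding subunit of the GA-binding protein, which drives many housekeeping and mitochondrial genes, had 2 replicate 1 and 6 replicate 2 peaks. The shared interval of 1041 bp lay over the start sites that GABPA shares head to head with ATP5PF, a subunit of the mitochondrial ATP synthase, and over H3K4me3 of both replicates. In replicate 1 this peak had 89 tags (80.4), a score of 227.0 (95) and a fold of 8.89 (90.9), and in replicate 2 32 tags (78.9), a score of 73.8 (43.5) and a fold of 3.0 (6.2). The summits were 40 bp apart, the closest of the 7 shared intervals, which ranged up to 1941 bp. The second replicate 1 peak had 28 tags, beyond the end of the gene and 2446 bp from a replicate 2 peak with 13 tags.

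**Figure D3:**
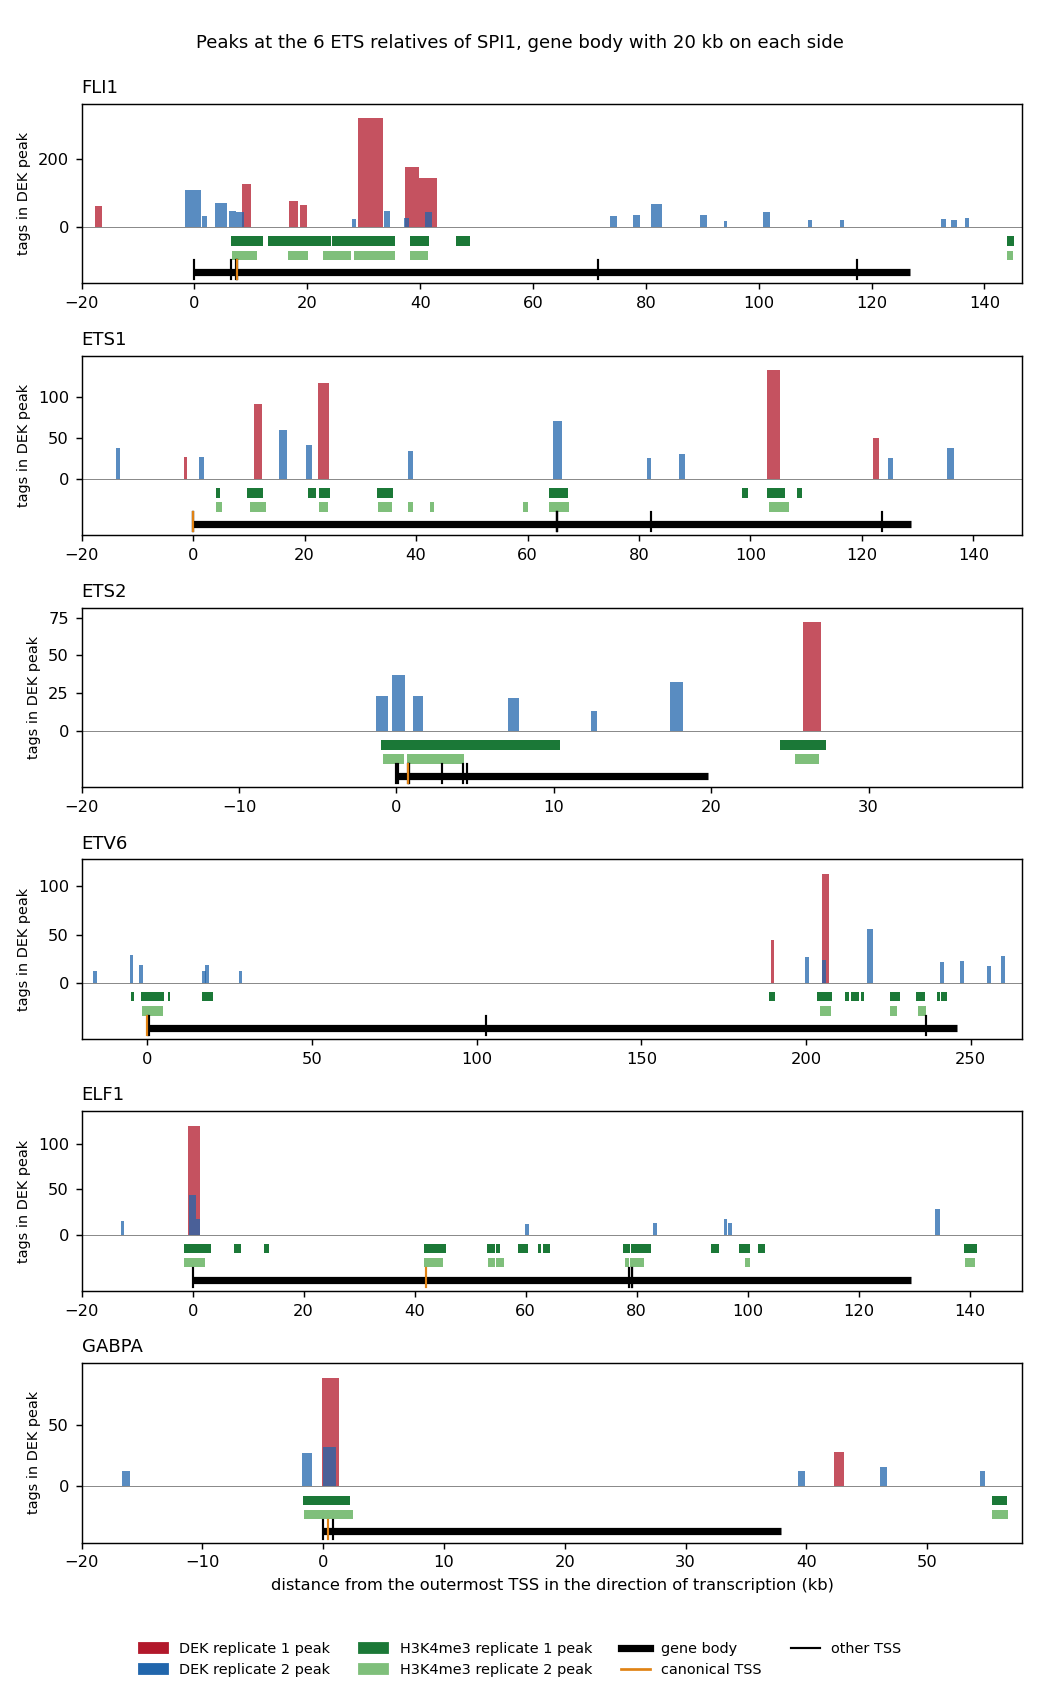
Peaks at FLI1, ETS1, ETS2, ETV6, ELF1 and GABPA against the distance from the outermost start site (TSS) in kb, positive in the direction of transcription; the height of a DEK bar is its tags, and the bars under each axis are H3K4me3 peaks and the gene body with its start sites. Overlaps of the lists are seen at FLI1, ETV6, ELF1 and GABPA, while those of ETS1 lie side by side without overlap and the replicate 1 bar of ETS2, with 72 tags, stands apart from its replicate 2 bars.

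Near start sites, both lists had a peak over or within 1 kb of a start site of FLI1, ETS1, ELF1 and GABPA, which is 4 of the 7 genes, against 7.93% of protein-coding genes. Any annotated start site of a gene counted, so genes with more start sites had more chances. The shares over protein-coding genes were not matched for that number. At ETS1 the lists did so at different start sites: the replicate 1 peak was 462 bp from the start of a short retained-intron transcript near the end of the gene, and the replicate 2 peaks covered internal starts. With both lists required at the same start site, 3 of the 7 genes were left, against 5.77% of protein-coding genes. Those were FLI1, where the replicate 1 peak was 904 bp from the main start site, ELF1, where peaks of both lists covered the distal start site, and GABPA, where they covered the main one.

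H3K4me3 overlapped 14 of the 18 replicate 1 peaks in at least 1 of its replicates (77.8%, interval 54.8 to 91.0%), whereas over the whole list it was 51.3%. Of the 79 replicate 2 peaks, 26 did (32.9%, interval 23.6 to 43.9%), and over the whole list it was 11.0%. Within the windows of all protein-coding genes the shares were 53.1% in replicate 1 and 12.4% in replicate 2. The mark itself covered 2.77% of the genome in H3K4me3 replicate 1 and 1.83% in H3K4me3 replicate 2. In the windows of these genes it was denser, with 34.8 and 24.5 kb of the 166.7 kb at FLI1. At GABPA it covered 5.10 and 5.39 kb of 77.9 kb. The shares were not adjusted for this coverage, so they are not read as a trait of the DEK peaks at these genes. Requiring both H3K4me3 replicates left 13 of 18 (72.2%, whole list 32.9%) and 15 of 79 (19.0%, whole list 7.74%). At SPI1, 3 of the 16 replicate 2 peaks overlapped the mark in at least 1 of its replicates, at FLI1 5 of 20 and at ETS2 4 of 6. At ETV6 it was 6 of 13, at ETS1 3 of 10, at ELF1 3 of 8 and at GABPA 2 of 6. Only 1 of the 6 at ETV6 overlapped the mark in both of its replicates. In replicate 1, FLI1 alone gave 6 of the 14 peaks. Read from the mark, the windows held 55 H3K4me3 peaks in replicate 1 and 36 in replicate 2, of which 21.8% and 30.6% overlapped a replicate 1 DEK peak, against 15.8% and 17.3% over all H3K4me3 peaks. With replicate 2 DEK peaks this was 29.1% and 30.6%, against 28.5% and 35.0%.

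**Figure D4:**
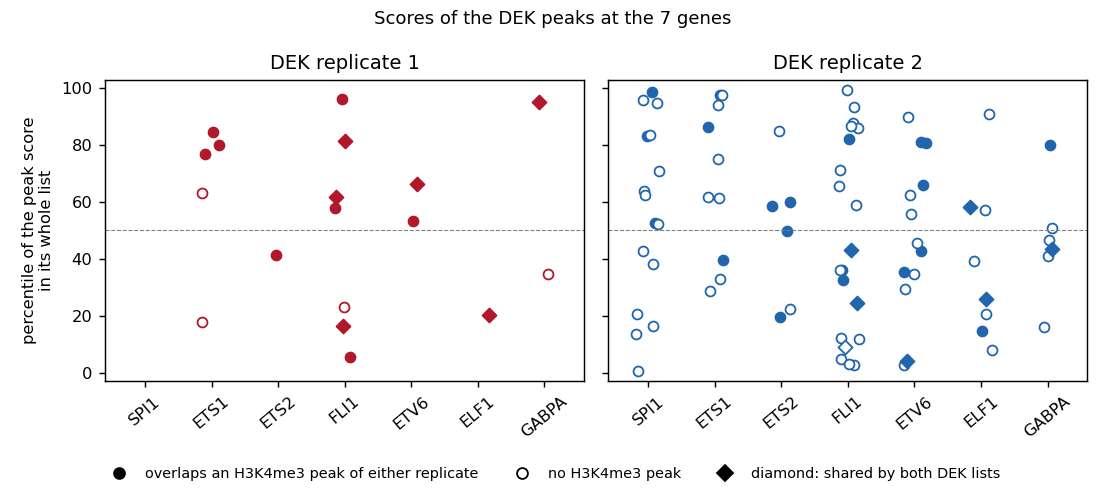
Percentile of the score of each DEK peak within its whole list, by gene, for replicate 1 (left) and replicate 2 (right); filled points overlap an H3K4me3 peak of either replicate, open points do not, and diamonds are peaks shared by both lists. The shared peaks at these genes lie from 4.1 to 58.2 in replicate 2 and from 16.5 to 95 in replicate 1, and SPI1 has no point in replicate 1.

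The 7 shared replicate 2 peaks at these genes had scores of 52.1 to 85.8, at percentiles 4.1 to 58.2. At FLI1, ETV6, ELF1 and GABPA, the 4 genes with a shared interval, the replicate 2 peak with the highest score was an unshared one. With a score of at least 100 asked of both lists, 6 replicate 1 peaks (3 at ETS1, 2 at FLI1, 1 at GABPA) and 24 replicate 2 peaks remained and no shared interval was left. How many of the 4453 shared intervals of the whole lists met this score, and at which percentiles their peaks lay, is not given here. The loss and the percentiles are therefore not read as particular to these genes. The unshared replicate 1 peaks stood a median of 5.29 kb from the nearest replicate 2 peak, against 5.88 kb over the whole list.

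The motifs of the family were searched for on both strands in 0.30 kb around the middle of each peak. The core GGAA was in 94.4% of the replicate 1 windows at the 7 genes and in 89.1% over the list, and in 79.7% and 75.5% in replicate 2. A longer form that PU.1 prefers, GAGGAA, was in 8 of 18 replicate 1 windows (44.4%, interval 24.6 to 66.3%; list 31.0%) and in 12 of 79 replicate 2 windows (15.2%; list 15.0%). GAGGAAGT, which contains GAGGAA and GGAA, was in 3 of 18 (16.7%, interval 5.84 to 39.2%; list 5.78%) and in 1 of 79 (1.27%; list 1.04%). The 3 replicate 1 windows with it were the GABPA promoter, the peak in intron 3 of ETV6 and the weakest first-intron peak of FLI1 by score, and the 1 in replicate 2 was the GABPA promoter again. CCGGAAGT, the form preferred by ETS1, ELF1 and GABPA, which contains GGAA, was in none of the windows of either list, and over the lists in 0.851% and 0.40%. Around the summit in place of the middle, it was in 1 of 18 (5.56%; list 1.21%) and 1 of 79 (1.27%; list 0.414%). The intervals for the members contained the list values for GGAA, for GAGGAA and for CCGGAAGT in both replicates, and for GAGGAAGT in replicate 2, while in replicate 1 the GAGGAAGT interval began just above the list value. That interval rests on 3 windows, is 1 of several compared, and is not a test. The bases G and C made up a median of 46.7% of the replicate 1 windows (list 48.2%) and of 54.5% of the replicate 2 windows (list 53.5%).

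Among the other 21 ETS genes, 9 had a replicate 1 peak, 19 a replicate 2 peak and 4 a shared interval, all near the shares of protein-coding genes (38.8%, 93.8% and 19.1%). The 4 were ELF4 with 3 intervals, a relative of ELF1, and ELF2, ERF and ETV5 with 2 each. Pooled over their windows, the other ETS genes had 1.11 peaks per 100 kb in replicate 1 and 10.1 in replicate 2. Of the partners with which GABPA forms its complex, GABPB1 had 2 shared intervals and GABPB2 none. Of 12 genes known as targets of PU.1 in myeloid cells, 10 had a replicate 1 peak, 11 a replicate 2 peak and 3 a shared interval. The shares of all protein-coding genes were 38.8%, 93.8% and 19.1%, as given above, so that the counts for replicate 2 and for shared intervals were near the background. The 3 were CSF1R, the receptor for macrophage colony-stimulating factor, with 2 intervals, CD14, a co-receptor for lipopolysaccharide, with 1, and FCGR1A, a high-affinity IgG receptor, with 1.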

How the data were processed

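Per the labels and the methods of the study, reads were aligned to hg19 with Bowtie2 and peaks were called with MACS 1.4.1 in each precipitation separately. The authors deposited, for each DEK list, tag counts per peak, a score of minus 10 times log10 p, a fold enrichment (ratio) and a false discovery rate in percent; these values were used as given. The H3K4me3 lists gave positions alone. Per the methods, chromatin that was not precipitated served as the negative control; total reads per library are not given in the sources used here beyond a minimum for all samples.

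Peaks were joined to GENCODE release 44 genes on GRCh37, which has the coordinates of hg19, in windows of 20 kb beyond each gene body. Overlaps needed 1 bp. Percentiles, shares and motif searches were computed in Python 3.11.15 with NumPy 2.4.6, pandas 2.3.3, SciPy 1.17.1 and pysam 0.24.0, and the overlap routines were tested on simulated data (26 of 26 checks passed). Named beside the 7 genes were genes of the other lists with a shared interval, genes under a peak of the windows, and the 3 genes most like SPI1 in log2 tags per kb plus a pseudocount of 1. SPIB and SPIC were named after their values were seen. No test was run, since all DEK samples were of 1 kind. The members and gene lists were chosen with earlier results of these data known.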

Additional observations from a re-analysis of the deposited data

How the results depend on the processing

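Of 59 alternative values, 39 were counted as near the value reported and 20 as moved. Some counted as moved were still within 1.5 times of it. The share with GGAA in replicate 1, for example, went from 94.4% to 66.7% and to 100%. No paired analysis was possible because no comparison between groups was tested. Restricting to the gene bodies left 49 of the 79 replicate 2 peaks, extending the windows by 50 kb gave 121, and keeping only as many replicate 2 peaks of highest score as replicate 1 has gave 9 and 0 shared intervals in place of 7. With a score of at least 100, there were 6 replicate 1 peaks, 24 replicate 2 peaks and 0 shared intervals, at 0 genes. The share of all shared intervals left by the equal-length and score settings is not given here. Asking for an overlap of 50% of each peak left 2 shared intervals at 2 genes, and 2 of the other ETS genes. With the outermost start site alone, 2 genes had peaks of both lists within 1 kb in place of 4, and without DEK replicate 1 or 2 the single lists gave 4 to 5. The shares of protein-coding genes under these start-site settings are not given here. The H3K4me3 share of replicate 2 DEK peaks was 19.0% with both H3K4me3 replicates required and 20.3 to 31.6% with 1 of them left out, the lower value without H3K4me3 replicate 1. In windows of 0.10 kb, GGAA was in 66.7% of replicate 1 windows (list 61.9%) and 44.3% of replicate 2 windows (list 40.6%). GAGGAA was in 5.56% (list 12.6%) and 3.8% (list 4.98%). It was thus below the list in both replicates, whereas in windows of 0.30 kb it was above the list in replicate 1. GAGGAAGT was in 5.56% of replicate 1 windows of 0.10 kb (1 window, list 2.32%). Around the summits, GGAA was in 100% of replicate 1 windows (list 88.7%) and GAGGAAGT in 22.2% (list 7.48%). The causes were not tested.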

Other observations

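Some ETS genes outside the 7 had DEK peaks in 1 list alone. SPDEF, a factor of secretory epithelia, had 20 replicate 2 peaks with 1607 tags and 0 in replicate 1, and among PU.1 targets CYBB, the large subunit of the phagocyte oxidase, had 3 replicate 1 peaks with 131 tags and 0 in replicate 2. ELANE, the neutrophil elastase gene, had 14 replicate 2 peaks with 1138 tags and 0 in replicate 1. These genes were picked after their values were seen.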
